A study of Mus musculus with 18 samples.

Results

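The 49 genes described here encode the machinery that 2-deoxyglucose (2-DG) meets in a cell: 22 genes of glucose uptake and glycolysis and 27 genes of the hexosamine pathway, mannose activation and N-glycan assembly and transfer. They were listed by name for their function, but with earlier results of these data known, so the list is not blind to them. All 49 were found among the 21883 protein-coding genes of the mouse annotation. The study asked where the transcription factor ATF4 sits on chromatin in primary immature neurons, by chromatin immunoprecipitation and sequencing (ChIP-seq). The neurons came from mouse embryos of embryonic day 14, of a strain the labels do not name, and had been in culture for 2 days. They were left untreated (control) or received 10 mM 2-DG for 6 h. The 18 labelled samples comprised immunoprecipitated and input chromatin, and 10 immunoprecipitated samples came with a list of peaks, the intervals where reads piled up over background. Titles and descriptions agreed for 4 control and 4 2-DG lists, which were compared; the 2 lists for which they disagreed entered no comparison.

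Several features of the labels limit the comparison. The series design names an ATF4 antibody for both treatments, whereas the sample labels list it for the 2-DG samples and give none for the controls, so an effect of 2-DG and a difference in antibody cannot be told apart. The design text speaks of 3 independent replicates and the labels hold 4 uncontested lists per treatment, and nothing ties a list to its own culture, so the spread between lists may be technical. A peak list gives neither read depth nor expression, so the neuronal identity of the cells could not be checked against markers, and a gene without a peak is a gene without a call at the authors' threshold.

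Glycolysis converts glucose to pyruvate after hexokinase traps it in the cell as glucose 6-phosphate and phosphofructokinase commits it to breakdown. 2-DG enters through the same glucose transporters and is phosphorylated by hexokinase, but its phosphate cannot be carried through the pathway and accumulates. Because 2-DG also resembles mannose, it disturbs the lipid-linked sugar chain that the oligosaccharyltransferase hands to new proteins in the endoplasmic reticulum. The hexosamine pathway supplies UDP-N-acetylglucosamine for that chain. ATF4 is the transcription factor of the integrated stress response, and with C/EBP partners it binds C/EBP-ATF response elements, whose core is written TGATGNAA below.

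The labels give no replicate numbers. Lists were numbered here within each treatment, in the order of the samples, and equal numbers mark no pair. The lists differed in length. The control lists held 3461, 3784, 8202 and 6811 peaks (replicates 1 to 4), and the 2-DG lists held 15240, 7369, 6371 and 5856. The longest list, 2-DG replicate 1, therefore offered the most peaks near any gene. For reference, 6 textbook ATF4 targets were counted, Trib3, Chac1, Asns, Ddit3, Atf3 and Sesn2. They were chosen with earlier results of these data known, so they are no independent check of the assay. In each of the 4 2-DG lists, all 6 had a peak no further than 2000 bp from a gene end. In the control lists 3, 0, 1 and 0 of the 6 had one.

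Peaks at the ends of the 49 genes, the positions at which the textbook targets were called, were few. A peak no further than 2000 bp from either gene end, called an end peak here, was present in at least 1 2-DG list for 1 of 22 glycolysis genes (Hk2) and 1 of 27 hexosamine and N-glycan genes (Gnpnat1), against 8.17% of all protein-coding genes. No member had such a peak in a control list, against 4.89% of all genes. No member had one in at least 3 of the 4 2-DG lists, against 1.81% of all genes. By list, the number of the 49 genes with an end peak was 2, 0, 0 and 1 in the 2-DG lists and 0 in every control list. The 2-DG lists thus averaged 1.53% ± 1.95 of the members with an end peak, beside 3.54% ± 1.48 of all genes (SD, n = 4 each). That gap was about the size of the members' own spread. In the control lists 1.67% ± 0.354 (SD, n = 4) of all genes had one.

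Counted out to 20 kb beyond the gene, more of the members were reached. A peak inside the gene or within 20 kb was present in at least 1 2-DG list for 9 of 22 glycolysis genes and 9 of 27 hexosamine and N-glycan genes, against 43.7% of all genes. In at least 1 control list it was present for 6 of 22 and 8 of 27, against 35.1% of all genes. Peaks within 20 kb, at the same site or not, were present in at least 3 of 4 2-DG lists for Pfkp among the glycolysis genes and for Stt3a, Rpn1 and Gmppa among the N-glycan genes, which is 1 of 22 and 3 of 27, against 12.0% of all genes. In at least 3 of 4 control lists they were present for Hk1 and Pfkfb3, 2 of 22, and for 0 of 27, against 4.83% of all genes. At Hk1 these calls fell at several sites, of which control replicates 1 and 2 shared 1, and at Pfkfb3 they fell at the same site. No peak lay within 20 kb in any of the 8 lists for 11 of 22 and 13 of 27, against 44.9% of all genes. These counts cover windows of unequal size, since a long gene offers more room. The median length was 17154 bp for the glycolysis genes, 14257 bp for the hexosamine and N-glycan genes and 17170 bp for all genes.

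**Figure D1:**
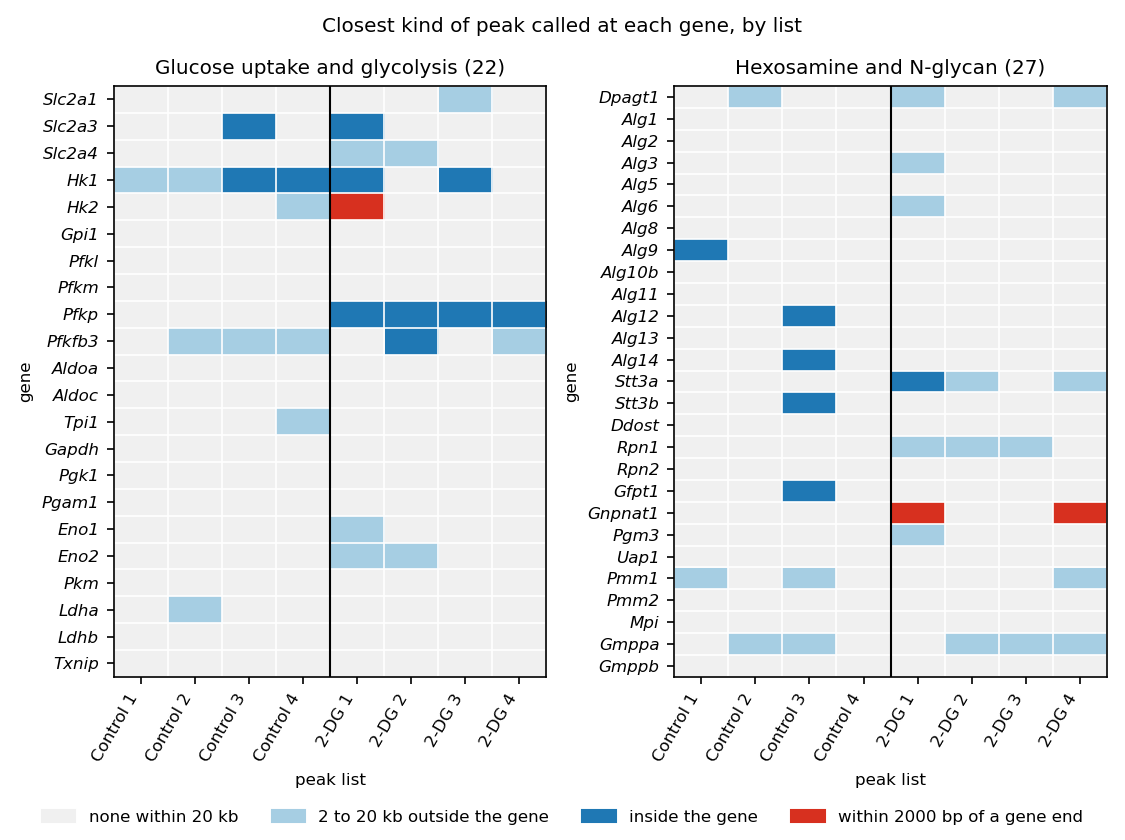
Each row is a gene and each column a peak list. The colour gives the closest kind of peak called: red, at most 2000 bp from a gene end, dark blue, inside the gene, light blue, 2 to 20 kb outside, and grey, none within 20 kb. Pfkp is dark blue in all 4 2-DG lists and grey in all 4 control lists, red appears at Hk2 and Gnpnat1 alone, and 24 of the 49 rows are grey throughout.

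The number of glycolysis genes with a peak within 20 kb was 7, 4, 3 and 2 in the 2-DG lists and 1, 3, 3 and 4 in the control lists. The means were 4 ± 2.16 and 2.75 ± 1.26 genes (SD, n = 4 each), and the ranges overlapped. Among the hexosamine and N-glycan genes the numbers were 7, 3, 2 and 5 with 2-DG and 2, 2, 6 and 0 in the controls. Their means, 4.25 ± 2.22 and 2.5 ± 2.52 genes (SD, n = 4 each), lay closer together than the spread between lists. Both groups had their highest 2-DG count in the longest list. Without that list the glycolysis mean with 2-DG was 3 genes and the hexosamine and N-glycan mean 3.33 genes. As shares, 16.8% ± 8.06 of the 49 genes had a peak within 20 kb in a 2-DG list and 10.7% ± 5.37 in a control list, beside 21.0% ± 7.99 and 13.8% ± 5.28 of all genes (SD, n = 4 each).

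**Figure D2:**
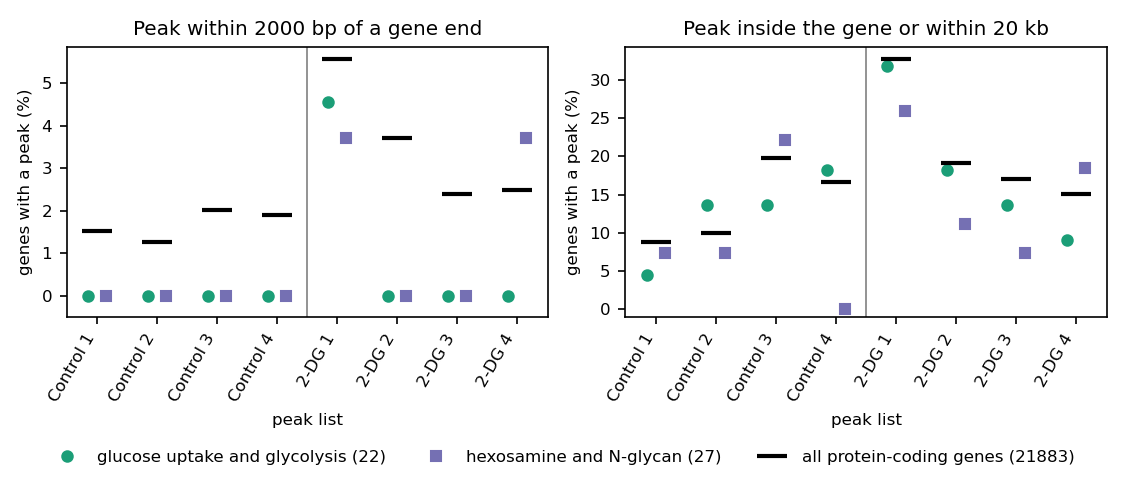
The percentage of genes with an end peak (left, up to 2000 bp from either end of the gene) and inside the gene or within 20 kb (right) is plotted for each list, for the 22 glycolysis genes (circles), the 27 hexosamine and N-glycan genes (squares) and all 21883 protein-coding genes (bars). In the right panel 12 of the 16 member points lie under the bar of their own list and 4 above it. In the left panel 15 of 16 lie under it, and the hexosamine and N-glycan genes in 2-DG replicate 4 lie above it. Most points of the left panel are at 0, which lies under the bar in any case. With sets of 22 and 27 genes the 15 of 16 therefore cannot show that members have fewer end peaks.

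Pfkp, which encodes the platelet-type phosphofructokinase subunit that is also found in brain, was the member with the most regular signal. Its gene spans chr13:6579874-6649060 on the minus strand of mm10. All 4 2-DG lists held a peak within the same stretch of the gene, chr13:6636475-6637300, and none of the 4 control lists did. The deposited fold over local background there was 22.3, 12.4, 5.87 and 5.31 in 2-DG replicates 1 to 4, and the deposited −log10 q value was 75.2, 27.6, 4.93 and 5.54. The 4 summits lay 12047, 12015, 12017 and 12050 bp downstream of the annotated start site, inside the gene. No exon coordinates were used, so exon and intron could not be told apart. Ranked by fold within its list, the peak stood at place 331 of 15240, 544 of 7369, 1318 of 6371 and 1936 of 5856. It was thus high in replicates 1 and 2 and moderate in replicates 3 and 4.

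An inside peak in at least 3 of 4 2-DG lists was found for 1 of the 49 genes, Pfkp, against 5.26% of all genes. Pfkp was likewise the one member whose inside peak was present in every 2-DG list and absent from every control list, a pattern shown by 138 genes or 0.631% of all genes. Among genes of 50 to 100 kb, the length class of Pfkp at 69187 bp, 40 of 2516 or 1.59% showed it. The two-sided exact test (Fisher) of 4 lists against 4 gave p = 0.0286, the smallest value this design allows, and an adjusted p of 1 over all 21883 genes. The other subunit genes, Pfkl of liver and Pfkm of muscle, had no peak within 20 kb in any of the 8 lists. A further Pfkp peak was called in 2-DG replicate 1 alone, 8147 bp downstream of the start at fold 4.64, and another in 2-DG replicate 3 alone, 66775 bp downstream at fold 3.91.

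**Figure D3:**
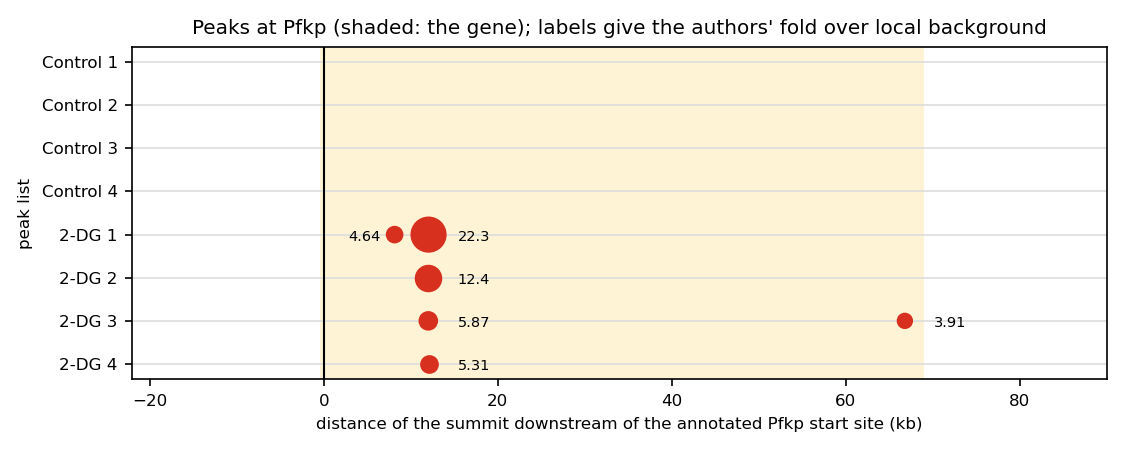
Summits of the peaks at Pfkp are drawn by distance downstream of its start site, in kb, with 1 row per list, the gene shaded, and each point labelled with the deposited fold, which also sets its size. The 4 2-DG lists share a summit close to 12 kb, where folds run from 22.3 to 5.31, and the 4 control rows are empty.

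Hk2 encodes the inducible hexokinase, which phosphorylates both glucose and 2-DG. Its end peak appeared in 2-DG replicate 1 alone, at chr6:82774411-82774543, with a fold of 5.26 that exceeded 69.3% of the folds in that list. The summit lay 54 bp before the annotated start site. Neither the other 3 2-DG lists nor a control list held an end peak at Hk2, and the control list of replicate 4 held a peak of fold 3.89 that was 14757 bp away. The promoter of Hk2 is shown because its summit falls beside the only unfolded protein response element (TGACGTGG, here read on the other strand) found in a glycolysis promoter. The promoter of Chek1 is shown because the peak counted near Stt3a, below, straddles its start site. The promoter of Chac1, whose product degrades glutathione and which is a textbook ATF4 target, serves as the reference. Each line gives the 250 bases before the start site on the gene's own strand, from RefSeq (GRCm38.p6, the mm10 assembly), 5′ to 3′, with motif matches in capitals. The Hk2 stretch is chr6:82774455-82774704 (minus strand), that of Chek1 is chr9:36726659-36726908 (minus strand), and that of Chac1 is chr2:119350992-119351241 (plus strand).
Hk2: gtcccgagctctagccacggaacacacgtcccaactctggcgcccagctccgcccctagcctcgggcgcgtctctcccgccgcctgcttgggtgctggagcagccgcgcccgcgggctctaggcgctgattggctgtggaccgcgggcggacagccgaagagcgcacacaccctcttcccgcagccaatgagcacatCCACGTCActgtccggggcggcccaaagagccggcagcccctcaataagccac
Chek1: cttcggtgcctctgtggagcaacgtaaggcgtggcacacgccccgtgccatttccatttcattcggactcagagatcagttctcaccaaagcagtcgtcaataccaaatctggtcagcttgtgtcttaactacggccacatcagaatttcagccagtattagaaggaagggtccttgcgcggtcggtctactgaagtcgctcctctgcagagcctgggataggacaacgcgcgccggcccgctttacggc
Chac1: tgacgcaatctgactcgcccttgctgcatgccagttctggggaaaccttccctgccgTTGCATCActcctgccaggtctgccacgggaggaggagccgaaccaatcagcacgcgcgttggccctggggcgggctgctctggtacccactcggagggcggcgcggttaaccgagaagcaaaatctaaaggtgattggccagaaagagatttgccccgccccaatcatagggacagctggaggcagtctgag
In Hk2 the first base of the motif lay 53 bp before the start site, next to the summit. In Chac1 the capitals mark the C/EBP-ATF core on the other strand, whose first base lay 193 bp before the start site. The Chac1 summits of the 4 2-DG lists lay 224, 213, 179 and 171 bp before it, with folds of 142, 128, 69 and 66.7. Chac1 also had end peaks in control replicates 1 and 3, with folds of 13.8 and 4.68. The Chek1 stretch held none of the motifs searched.

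Hk1, the hexokinase of most brain cells, had a peak within 20 kb in each of the 4 control lists and in 2-DG replicates 1 and 3, at several separate sites. Its gene is long, at 111066 bp. A peak inside the gene at chr10:62359367-62359633 was called in 2-DG replicates 1 and 3, with folds of 4.95 and 4.4. A different inside peak was called in control replicate 3 (fold 6.08) and 2-DG replicate 1 (fold 4.33). Other inside peaks were called in control replicate 4 (fold 3.54) and 2-DG replicate 1 (fold 4.64), each alone. The calls of control replicates 1 and 2 lay 19879 and 19904 bp outside Hk1, with folds of 5.09 and 3.66, and the nearest gene was Hkdc1, a hexokinase-like gene. 2-DG replicate 1 held a peak of fold 4.33 beside this site, 19662 bp outside Hk1, so calls there were not limited to the controls. Among the glucose transporters, Slc2a4, which encodes the insulin-responsive GLUT4, had a peak at chr11:69935842-69935992 in 2-DG replicates 1 and 2 with folds of 3.4 and 3.91. That peak lay 47 bp from the start of Ybx2 and 6434 bp outside Slc2a4. Slc2a1, the transporter of the blood-brain barrier and glia, had 1 peak outside the gene in 2-DG replicate 3 (fold 4.4). Slc2a3, the neuronal transporter, had 1 inside peak in 2-DG replicate 1 (fold 4.02) and another, elsewhere in the gene, in control replicate 3 (fold 4.21).

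Pfkfb3, which makes the activator of phosphofructokinase, showed a site shared by the treatments. A peak at chr2:11461855-11462089, outside the gene, was called in control replicates 2, 3 and 4 with folds of 5.13, 5.15 and 3.54, and in 2-DG replicate 4 with a fold of 3.65. An inside peak of fold 3.56 was called in 2-DG replicate 2 alone. Of the enolases, Eno2, the neuronal form, had peaks in 2-DG replicates 1 and 2, and none in a control. The site shared by these 2 lists had summits 19647 and 20051 bp outside Eno2, folds of 4.95 and 4.27 and Lrrc23 as the nearest gene. 2-DG replicate 1 held a further peak 12350 bp outside Eno2 (fold 4.64). Eno1 had 1 peak of high rank, in 2-DG replicate 1, with fold 10.8 at percentile 92.7. It lay 17930 bp outside Eno1 and nearest to Rere, a transcriptional corepressor gene. Tpi1 (triosephosphate isomerase) and Ldha (lactate dehydrogenase A) each had 1 peak, in a control list, with folds of 3.54 and 4.4. The remaining 11 genes had no peak within 20 kb in any of the 8 lists. They were Gpi1, Pfkl, Pfkm, Aldoa, Aldoc, Gapdh, Pgk1, Pgam1, Pkm, Ldhb and Txnip, that is, most enzymes from glucose 6-phosphate isomerase to pyruvate kinase and the gene of the glucose-uptake inhibitor TXNIP.

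In the hexosamine pathway, Gnpnat1, which acetylates glucosamine 6-phosphate, had an end peak in 2-DG replicates 1 and 4. The interval was chr14:45388910-45389136, with folds of 4.64 and 3.98, at percentiles 55.8 and 20.8 of their lists. The summits lay 13 and 18 bp from the upper end of the gene. 2-DG replicate 1 also held an inside peak at Gnpnat1 (fold 4.95). 2-DG replicates 2 and 3 and the 4 control lists held no end peak there, and the exact test gave p = 0.429 with an adjusted p of 1. Gfpt1, the rate-limiting enzyme of the pathway, had 1 inside peak, in control replicate 3 (fold 5.15). Pgm3, the mutase of the next step, had 1 peak outside the gene in 2-DG replicate 1 (fold 4.64), nearest to Dop1a. Uap1, which makes UDP-N-acetylglucosamine, had none.

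Among the mannose activation genes, Gmppa alone had a peak in 3 lists of a treatment. This gene encodes the regulatory subunit of the enzyme that makes GDP-mannose. 2-DG replicates 2, 3 and 4 held a peak at chr1:75461494-75461831 with folds of 4.27, 6.85 and 4.65. Control replicates 2 and 3 held a peak at chr1:75462271-75462515, further along the chromosome, with folds of 3.66 and 4.21. Both sites lay 18375 to 19121 bp from Gmppa and nearest to Asic4, an ion channel gene. Pmm1, a phosphomannomutase, had a peak in 2-DG replicate 4 (fold 4.65) and in control replicates 1 and 3 (folds of 5.09 and 4.21), at 3 separate sites. Pmm2, Mpi and Gmppb had none.

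Among the enzymes that build the lipid-linked chain, Dpagt1, which adds its first sugar, had a peak within 20 kb in 2-DG replicates 1 and 4 and in control replicate 2, none of them at an end of the gene or inside it. Alg3 and Alg6 each had peaks outside the gene in 2-DG replicate 1, with folds of 4.02 and 4.33. Alg9, Alg12 and Alg14 each had an inside peak in a control list, with folds of 3.64, 3.74 and 4.21. Alg1, Alg2, Alg5, Alg8, Alg10b, Alg11 and Alg13 had none. No chain-building gene had a peak in more than 2 of the 4 lists of a treatment.

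Of the oligosaccharyltransferase genes, Stt3a, a catalytic subunit, had a peak within 20 kb in 2-DG replicates 1, 2 and 4 and in no control list, with exact p = 0.143 and an adjusted p of 1. The shared interval was chr9:36726466-36726775, with folds of 6.19, 6.4 and 3.98 in replicates 1, 2 and 4. It sat at the start of the neighbouring gene Chek1, a DNA damage checkpoint kinase, whose promoter is printed above. The summits of replicates 1 and 2 lay 16 and 24 bp after the Chek1 start site, just past the printed stretch, and that of replicate 4 lay 15 bp before it. They were 2671 to 2710 bp from the end of Stt3a, just beyond the 2000 bp window. The values nearest to that limit on its inner side were the 54 bp of Hk2 and the 18 bp of Gnpnat1. 2-DG replicate 1 held a further peak inside Stt3a (fold 4.64). Rpn1, a ribophorin subunit, had a peak at chr6:88114942-88115183 in 2-DG replicates 1, 2 and 3 and in no control list, with folds of 3.4, 4.27 and 4.89 and exact p = 0.143, adjusted p = 1. Its summits were 9703 to 9806 bp outside the gene, and Rpn1 was the nearest gene. The 2 lists whose title and description disagree both held a peak there too. With them added, 4 of 5 2-DG lists and 1 of 5 control lists had a peak within 20 kb of Rpn1, whether grouped by title or by description. Stt3b, the other catalytic subunit, had 1 inside peak, in control replicate 3 (fold 3.74). Ddost and Rpn2 had none.

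Most regions near the members were called in a single list, as were most regions near genes in general. The calls merged into 43 regions, of which 30 were present in 1 list, 8 in 2 lists and 5 in 3 or more. Merged in the same way, gene by gene, 72.2% of the 29363 regions near all genes were present in 1 list, beside 69.8% near the members. A region near several genes was counted once for each of them. By treatment, 26 regions near the members were found with 2-DG alone, 15 in controls alone and 2 in both. Near all genes the shares were 51.6%, 33.1% and 15.3%, and near the members 60.5%, 34.9% and 4.65%. 2-DG replicate 1 alone accounted for 13 regions. Of the 43, 2 lay at a gene end, 17 inside a gene and 24 outside it, and for 17 of these last the summit was nearest to another gene. The 42 calls in the 2-DG lists had a median fold percentile of 45.6 within their lists and folds of 3.4 to 22.3. The 21 calls in the control lists had a median percentile of 33.2 and folds of 3.54 to 6.08. A fold of at least 10 together with a percentile of at least 90 was reached by 3 of the 42 2-DG calls, 2 at Pfkp and 1 near Eno1, and by 0 of the 21 control calls. Every list has calls at such percentiles by definition. The share among all calls is not given here, so the count is no result about the members.

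**Figure D4:**
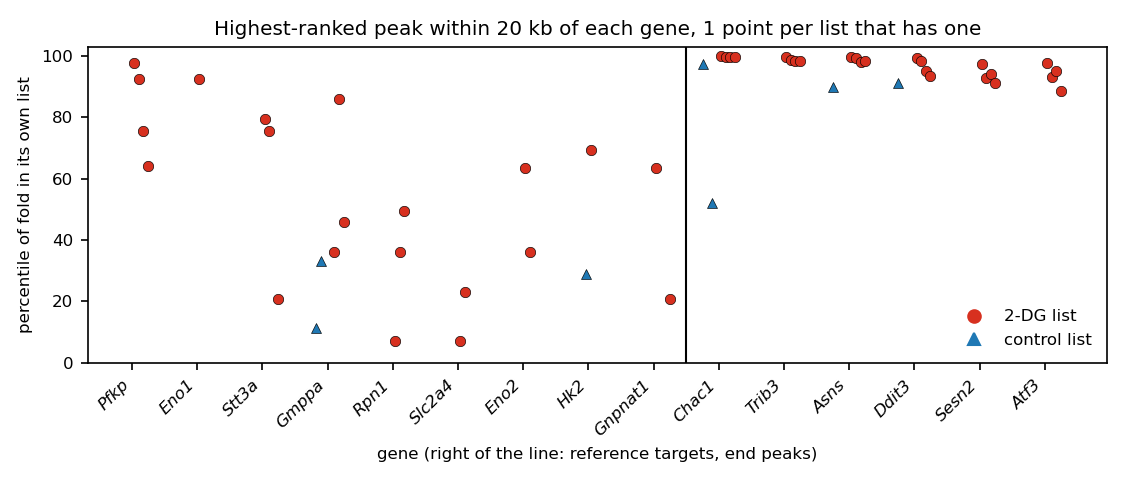
The percentile of a peak's deposited fold within its own list is plotted for the highest-ranked peak within 20 kb of selected members (left of the line) and for the end peaks of the 6 textbook targets (right), with 1 point per list that has such a peak, circles for 2-DG and triangles for controls. The textbook targets, which were chosen with earlier results known, sit between 88.5 and 100 in the 2-DG lists, and the members range from 6.92 to 97.8.

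Promoter sequence was in the table for 42 of the 49 genes, namely 20 glycolysis genes with 32 promoters and 22 hexosamine and N-glycan genes with 23 promoters. Slc2a3, Slc2a4, Dpagt1, Alg2, Alg11, Gnpnat1 and Gmppb had no entry. In windows of 250 bases before to 50 after the start, read on both strands, the C/EBP-ATF core TGATGNAA occurred in 0 of 32 and 0 of 23 promoters, against 3.6% of 21262 promoters of all protein-coding genes. It occurred in 4 of the 6 textbook targets (Asns, Atf3, Chac1 and Trib3). The cAMP response element TGACGTCA occurred at Ldha and Alg13, against 2.23% of all promoters. The unfolded protein response element TGACGTGG, which shares the letters TGACGT with the former, occurred at Hk2, against 0.705%. The endoplasmic reticulum stress element (ERSE) occurred at Alg12, against 0.141%. None of the 8 lists held an end peak at Ldha, Alg13 or Alg12.

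Other genes of the same pathways, a further 29 around glycolysis and 37 around hexosamines and N-glycans, were counted in the same windows. In at least 3 of 4 2-DG lists, 5 of 29 had a peak within 20 kb (Slc2a13, Adpgk, Bpgm, Slc16a3 and Slc16a7), and 4 of 37 did (Dolk, Nus1, Dpm3 and Krtcap2), beside the 12.0% of all genes. Dpm3 and Krtcap2 were counted through the same peaks, which lay at Krtcap2 and 10024 to 10075 bp from Dpm3. Slc16a3, Slc16a7 and Nus1 reached 3 lists only by adding calls at different sites. A control list also held a call at a Slc16a3 site and at a Slc16a7 site. The Dolk peaks lay 18376 to 18399 bp outside Dolk and nearest to Phyhd1. Control replicate 4 held a peak of fold 6.01 at another site, 16516 bp outside Dolk. In at least 3 of 4 control lists the counts were 1 of 29 (Hk3) and 0 of 37, beside 4.83%. The strongest 2-DG peaks of these other genes lay near Adpgk, the ADP-dependent glucokinase. Their folds were 38.7, 34.1, 14.2 and 11.9 in 2-DG replicates 1 to 4, with summits 12690 to 12721 bp outside the gene. Control replicate 1 held a peak of fold 4 at another site, 9162 bp outside Adpgk. Bpgm, which makes 2,3-bisphosphoglycerate, had a peak 12497 to 12578 bp outside the gene in all 4 2-DG lists, with folds of 13.3, 7.83, 4.89 and 3.98, and none in a control list. Slc2a13, a myo-inositol transporter, had an inside peak in 2-DG replicates 1, 2 and 4 with folds of 10.2, 6.4 and 6.3. At their ends, 0 of 29 and 1 of 37 had a peak in 3 or more 2-DG lists, against 1.81% of all genes. The 1 of 37 was Krtcap2, an accessory subunit of the oligosaccharyltransferase, with folds of 6.19, 6.76 and 4.65 in replicates 1, 2 and 4. In at least 1 2-DG list, an end peak was found for Mpc2, Ogt, Srd5a3, Ostc and Krtcap2, which is 1 of 29 and 4 of 37, against 8.17% of all genes. In at least 1 control list it was found for Pklr, Srd5a3 and Dad1, which is 1 of 29 and 2 of 37, against 4.89%.

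Gene by gene, the exact test found no protein-coding gene past the adjusted threshold of 0.05 in any window, because 4 lists against 4 cannot give less than p = 0.0286 and the lowest adjusted p was 1. At an unadjusted level under 0.05, the test (Fisher's exact, two-sided) returned 124 genes for end peaks, 139 for inside peaks and 334 for peaks within 20 kb. Of these, 124, 138 and 330 had the peak in every 2-DG list and lacked it in every control list. Pfkp was the only one of the 49 members among them, through its inside peak.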

How the data were processed

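Peak lists of 8 immunoprecipitated samples (4 control, 4 2-DG) were compared. Reads had been handled with BWA, Picard, MACS2 and DiffBind on mm10, per the submitters' processing notes; their versions, settings and the use of input chromatin are not given in the sources used here. Per the labels, each list belongs to 1 sample. The deposited columns, laid out as MACS2 writes them, hold a fold enrichment over local background (a ratio), −log10 p-values and q-values and an integer score, all made by the authors; read counts and depth are unknown. Folds and ranks are therefore read within a list.

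The 49 members, the other pathway genes and the reference targets were chosen with earlier results of these data known. Repeated rows of an interval were reduced to the summit of highest fold. Peaks were assigned by overlap of at least 1 bp to windows of 2000 bp around either gene end, to the gene body, and to the gene with 20 kb on either side, for 21883 protein-coding genes (RefSeq, GRCm38.p6); all 121 listed genes matched by symbol. Presence or absence per gene was tested with a two-sided Fisher's exact test of 4 lists against 4, which equals permuting the lists, with Benjamini-Hochberg adjustment over all genes; the code was tested on simulated data. Counts over members are given as mean and SD over lists with no test. Members with an end peak in any list, or one within 20 kb in 2 or more lists from the same treatment, were described in full, and the others by name. The position of the Dpagt1 peaks is not reported here. Alternatives were list length, thresholds, window width, the overlap rule, leaving out each list and adding the 2 contested lists. Python 3.11.15, pandas 2.3.3, numpy 2.4.6, scipy 1.17.1 and matplotlib 3.10.9 were used.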

Additional observations from a re-analysis of the deposited data

Results flagged for a closer look

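Of 18 groups of 4 lists screened, 3 had a list far from the others. The nominal rate of 1 group in 20 is meant for continuous values and does not hold for counts this small. The 49 members also contain both smaller sets, so the groups overlap. No excess over chance can therefore be read from the 3 groups. The number of glycolysis genes with an end peak was 1 in 2-DG replicate 1 and 0 in the other 2-DG lists. The number of hexosamine and N-glycan genes with an inside peak was 2 in 2-DG replicate 1 and 0 in the other 2-DG lists. The number of the 49 members with an inside peak was 6 in control replicate 3, above the other control lists.

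The 2 lists whose title and description name different treatments also held peaks at members where no control list had one of that kind. The list numbered 17 in its title held inside peaks at Hk2 (fold 4.54), Pfkfb3 (3.56), Slc2a1 (3.56) and Pfkp (3.56). The list numbered 18 held inside peaks at Pfkp with folds of 4.51 and 3.82, the first of them in the region shared by the 4 2-DG lists, and an end peak at Alg12 with fold 3.82. The Alg12 summit was not at the promoter. It lay 12511 bp from the start site and 1564 bp from the opposite end of the gene. Among the 6 textbook ATF4 targets an end peak was listed for 0 in list 17 and for 6 in list 18. Outside the genes, both lists held a peak in the Rpn1 region and in the Gmppa region that 2-DG lists shared. Which treatment each list belongs to was not settled here.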

How the results depend on the processing

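The inside peak of Pfkp in the 2-DG lists and its absence from the control lists were kept under every alternative that used the 8 lists, except that 3 of 4 2-DG lists held it at −log10 q of at least 5. With the 2 contested lists added, the shared Pfkp region held a peak in 5 of 5 2-DG and 0 of 5 control lists when they were grouped by title, and in 4 of 5 and 1 of 5 when grouped by description. Counting any peak within 20 kb of Pfkp, the planned measure, gave 5 of 5 and 1 of 5 under either grouping. The difference of 1.25 glycolysis genes with a peak within 20 kb turned to -0.25 when every list was cut to the length of the shortest. The difference of 0.5 hexosamine and N-glycan genes with an end peak was 0 at equal list length, 0 at −log10 q of at least 5 and 0 at fold of at least 5, and 1.5 with an end window of 5000 bp. The number of members with peaks within 20 kb in at least 3 2-DG lists (4 in the report) was 1 at equal list length, at −log10 q of at least 5 and at fold of at least 5, Pfkp each time, and 1 when all 4 lists were required. It was 2 (Pfkp and Rpn1) when each peak was given to its nearest gene alone, an alternative chosen after seeing the data. Leaving out 1 list at a time gave 4 to 9, with 5 without 2-DG replicate 1, 7 without replicate 2, 9 without replicate 3 and 7 without replicate 4, because 2 of 3 lists then sufficed. The differences within 20 kb kept their sign when any 1 list was left out, and without 2-DG replicate 1 that of the glycolysis genes was 0.25. Why values moved was not tested. No paired analysis was possible because the labels give no replicate numbers shared by the treatments. List length, not depth, is the limit that could be measured.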
